A study of Mus musculus with 9 samples.

Results

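Genes for readers of N6-methyladenosine (m6A), a methyl mark on messenger RNA, were examined for peaks of a histone mark in mouse leukemia cells, together with a gene for an eraser and a gene for a writer subunit of m6A. The 10 genes were chosen by name: Igf2bp1, Igf2bp2 and Igf2bp3, Ythdf1, Ythdf2 and Ythdf3, Ythdc1 and Ythdc2, and, beside these readers, Fto and Zc3h13. Each was taken with 5 kb either side, and every peak that overlapped this region by at least 1 bp was counted. All 10 were found among the 21631 protein-coding genes of chromosomes 1 to 19 and X in the gene table. Their regions came to 970982 bp in all, or 0.0378% of the 2571134266 bp compared, and ranged from 26560 bp at Ythdf1 to 365067 bp at Fto.

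The study carried out chromatin immunoprecipitation with sequencing (ChIP-seq) of H3R2me2a, histone H3 asymmetrically dimethylated at arginine 2, in 3 genotypes. The cells were labelled mouse bone marrow and were called leukemia cells by the series' design. Per the labels, Prmt6KO cells are a knockout of the gene for PRMT6, the enzyme that deposits the mark, Igf2bp2KO cells are a knockout of 1 of the 10 genes described here, and WT cells are wild type. All 3 were grown with interleukin 3, interleukin 6 and stem cell factor, and chromatin was fixed with 1% formaldehyde and sonicated. The series had 2 H3R2me2a libraries per genotype, each with its own peak list, and 3 input libraries, which were not analysed here. The labels do not say how the deletions or the leukemia were made, nor that both libraries of 1 genotype were separate cultures or animals. Any p-value therefore measures the spread between these libraries, which may be technical.

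Proteins of the IGF2BP family bind m6A-marked messenger RNAs and stabilise them. IGF2BP1 and IGF2BP3 are known as oncofetal proteins, made in the embryo and again in tumours, and IGF2BP2 is made more widely. YTH-domain proteins hold the methylated base in a pocket: YTHDF1, YTHDF2 and YTHDF3 act in the cytoplasm on translation and decay, YTHDC1 acts in the nucleus on splicing and export, and YTHDC2 is an RNA helicase known for its role in meiosis. FTO removes the methyl group, and ZC3H13 is a subunit of the complex that adds it. H3R2me2a is known to be scarce where histone H3 carries trimethylated lysine 4, a mark of active promoters.

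The lists differed greatly in length. The Prmt6KO lists held 812414 and 430225 peaks, the Igf2bp2KO lists 961 and 1221, and the WT lists 162454 and 133960. A count at a gene was therefore set beside the number expected from the mean density of the same list, which was 31.6 and 16.7 peaks per 100 kb in Prmt6KO, 0.0374 and 0.0475 in Igf2bp2KO, and 6.32 and 5.21 in WT. Total reads per library are not given by the labels or lists. The flat background behind the listed fold enrichments was 0.736 and 1.21 fragments in Prmt6KO, 1.45 and 1.33 in Igf2bp2KO, and 1.46 and 1.44 in WT. No summit was listed below 2 and 3 fragments in Prmt6KO, below 8 and 7 in Igf2bp2KO, and below 4 and 4 in WT. A position that 2 fragments sufficed to list in Prmt6KO replicate 1 thus needed 4 in WT. At Prmt6 itself the Prmt6KO lists held 7 and 4 peaks within 5 kb, of which 4 and 0 overlapped the gene, the Igf2bp2KO lists 0 and 0, and the WT lists 4 and 0, of which 1 and 0 overlapped it. The lists thus do not check the Prmt6KO label, and the extent of the deletion is not given by the labels. WT replicate 1 stood apart on chromosome X, where its peak density was 0.181 times that of its autosomes, against 1.20 in WT replicate 2. None of the 10 genes lies on X, but the mean density of each list includes X. In WT replicate 1 it is therefore below the density of the autosomes, and the ratios to it are somewhat raised. With the density of each gene's own chromosome, the log2 difference over the 10 genes given below was -0.27 in place of -0.28.

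Promoter sequence was examined first, since the 7 of the 10 genes found in the RefSeq promoter table (GRCm38.p6, the same build as mm10) all started in CpG-rich sequence. The 300-base windows, which run from 250 bases before to 50 bases after the start site, held 23 to 47 CpG dinucleotides, where the median of 32619 promoters was 7. CG was the motif searched, it reads the same on both strands, and 94.7% of all promoters held at least 1. Below are the 250 bases upstream of the start of Igf2bp2, the gene deleted in 1 of the 3 genotypes and the richest in CpG, and of Ythdf1 and Ythdf2, which had the listed peaks nearest to a start site. All 3 genes are read from the minus strand, and capitals mark each CG.
Igf2bp2, chr16:22163300-22163549: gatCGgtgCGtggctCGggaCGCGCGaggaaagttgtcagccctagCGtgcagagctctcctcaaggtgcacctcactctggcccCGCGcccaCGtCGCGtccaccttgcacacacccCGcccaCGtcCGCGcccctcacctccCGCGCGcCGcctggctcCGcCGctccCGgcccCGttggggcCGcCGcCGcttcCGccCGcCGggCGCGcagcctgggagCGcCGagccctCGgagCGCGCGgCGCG
Ythdf1, chr2:180920937-180921186: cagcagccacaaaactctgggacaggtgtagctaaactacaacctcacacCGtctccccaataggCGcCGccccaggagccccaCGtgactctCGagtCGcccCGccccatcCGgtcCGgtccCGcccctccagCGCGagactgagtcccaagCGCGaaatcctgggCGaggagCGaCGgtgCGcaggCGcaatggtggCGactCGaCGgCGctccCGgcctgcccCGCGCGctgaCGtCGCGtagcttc
Ythdf2, chr4:132212257-132212506: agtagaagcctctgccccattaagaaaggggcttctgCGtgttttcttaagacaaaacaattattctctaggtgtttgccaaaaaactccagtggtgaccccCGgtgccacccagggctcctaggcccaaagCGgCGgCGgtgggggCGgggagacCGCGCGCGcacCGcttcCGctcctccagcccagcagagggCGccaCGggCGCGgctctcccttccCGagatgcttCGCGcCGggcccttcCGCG
The Igf2bp2 stretch held 40 CG and 77.2% G or C, that of Ythdf1 30 CG and 68.4%, and that of Ythdf2 22 CG and 64.0%. The 300-base window of Igf2bp2, with 47 CpG, was at the 98.5th percentile of all promoters by CpG number.

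No list of any genotype held a peak on any of these promoter windows. The nearest summit was in Prmt6KO replicate 1 at all 3 genes whose sequence is shown. At Ythdf1, whose protein promotes translation of m6A-marked messages, it lay 200 bp downstream of the start site with 3 fragments, and the peak (180920668 to 180920867) ended just short of the window. At Ythdf2, whose protein drives decay of such messages, it lay upstream, at -398 bp, with 5 fragments (132212561 to 132212814). At Igf2bp2 it lay upstream, at -1204 bp, with 3 fragments. These positions were not listed in Prmt6KO replicate 2, where the nearest summits to the same start sites stood at -2870 bp for Ythdf1, -6948 bp for Ythdf2 and 2643 bp downstream for Igf2bp2.

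A promoter without a peak was the usual state of CpG-rich promoters in these data. Of all promoters, 14.0% and 4.95% overlapped a peak in Prmt6KO, 0.0521% and 0.0368% in Igf2bp2KO, and 1.91% and 1.15% in WT. Among the 7070 promoters with at least 23 CpG, as at the 7 genes, the shares were 5.23% and 0.919% in Prmt6KO, against 0.240% and 0.0990% in WT. The more CpG a promoter held, the less often it had a peak in each of these 4 libraries. For promoters with 0 to 4 CpG the share was 19.4% and 8.48% in Prmt6KO, against 3.47% and 2.44% in WT, and for those with at least 30 CpG it was 3.60% and 0.704% in Prmt6KO, against 0.130% and 0.0521% in WT. Reads from GC-rich DNA can be under-represented after amplification, which ran for 20 cycles here, and the part of base composition in these shares was not tested. Igf2bp1, Ythdf3 and Ythdc2 were not in the promoter table.

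**Figure D1:**
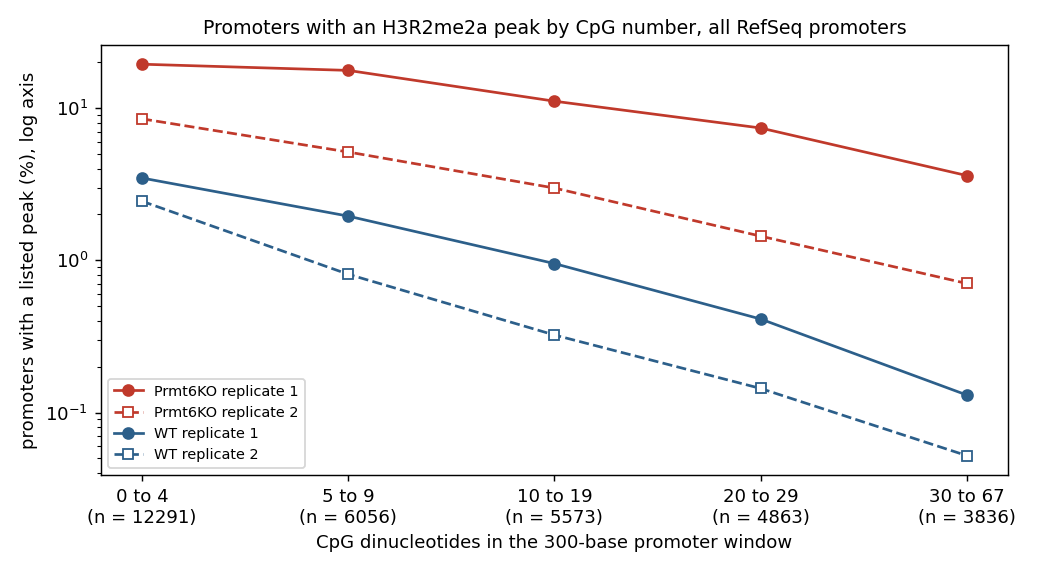
Share of RefSeq promoters (300-base windows) that overlapped a listed H3R2me2a peak, in percent on a log axis, by the number of CpG dinucleotides in the window, for the Prmt6KO libraries (red) and the WT libraries (blue). The share is lower in each richer class in all 4 libraries, and the 7 genes with a promoter in the table, with 23 to 47 CpG, belong to the classes on the right.

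Over the whole regions, the 10 genes carried between 0.743 and 1.22 times the H3R2me2a peaks that their length gives in the Prmt6KO and WT libraries, with Prmt6KO replicate 2 the lowest. Prmt6KO lists held 303 and 121 peaks there, where mean density gives 307.7 and 162.9, Igf2bp2KO lists held 0 and 0, where it gives 0.365 and 0.463, and WT lists held 75 and 45, where it gives 61.5 and 50.7. The ratio of listed to expected peaks was thus 0.985 and 0.743 in Prmt6KO and 1.22 and 0.887 in WT, and the groups overlapped. On the log2 scale it averaged -0.23 ± 0.29 in Prmt6KO and 0.06 ± 0.32 in WT (SD, n = 2 each), a difference of -0.28 with a pooled SD of 0.31 between libraries. No p-value is given for this sum, because the genes were named with earlier results of these data known. Of all 21631 genes, the ratio of the summed counts was 0.997 and 0.890 in Prmt6KO and 0.940 and 0.900 in WT.

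Fto decided part of this sum, since its region alone accounted for 117 and 38 of the Prmt6KO peaks and 23 and 5 of the WT peaks. Without Fto, the ratio was 0.967 and 0.815 in Prmt6KO and 1.35 and 1.26 in WT, and the log2 difference was -0.56. Then both Prmt6KO libraries were below both WT libraries. The 3 IGF2BP genes together differed by -0.04 on the log2 scale, the 3 YTHDF genes by -0.64 and the 2 YTHDC genes by -0.73. Pooled SDs between libraries were 0.24, 0.23 and 0.59. The IGF2BP and YTHDF sums each join genes that differed in opposite directions. With 0.5 added to each count, the log2 difference was 1.26 at Igf2bp1, 0.48 at Igf2bp2 and -0.50 at Igf2bp3. It was 1.20 at Ythdf1, -0.20 at Ythdf2 and -1.09 at Ythdf3. All 7 YTHDF peaks of WT replicate 2 lay at Ythdf3. Peak lists of cells in bulk do not tell a mark in fewer cells from less of the mark per cell.

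Peaks lay at every one of the 10 genes in both Prmt6KO libraries. The same was true of 88.4% of all protein-coding genes in Prmt6KO. In Igf2bp2KO 0 of the 10 had a peak in both libraries, where 0.407% of all genes did. In WT 7 of the 10 did, where 48.7% of all genes did, and 71.4% of the genes whose region was at least as long as the shortest of the 10. The 3 without a WT peak in both libraries were Igf2bp1, Ythdf1 and Ythdf2, each with 0 peaks in WT replicate 2, where mean density gives 3.08, 1.40 and 1.96. A count of 0 against expectations of this size is within counting error, since the exact Poisson intervals of 95% reach 1.20, 2.64 and 1.88 times the expected number.

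Gene by gene, the Prmt6KO libraries ran from 0.159 to 1.36 times the expected number and the WT libraries from 0 to 3.27 times. Of the 40 counts, 4 libraries at 10 genes, 34 had an exact Poisson interval that included the expected number. Above it were Zc3h13 and Ythdf3 in WT replicate 2 and Ythdc2 in WT replicate 1. Below it were Fto in Prmt6KO replicate 2 and in WT replicate 2, and Ythdf2 in Prmt6KO replicate 2. These intervals cover counting error only. They were not computed for all genes, so it is not known how usual such counts are. A permutation test of 2 libraries against 2 has 6 splits and can reach no p below 0.333, so no gene could pass a threshold of 0.05. For this test and for each gene's log2 difference, 0.5 was added to the listed and the expected count, which keeps counts of 0 on the scale.

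**Figure D2:**
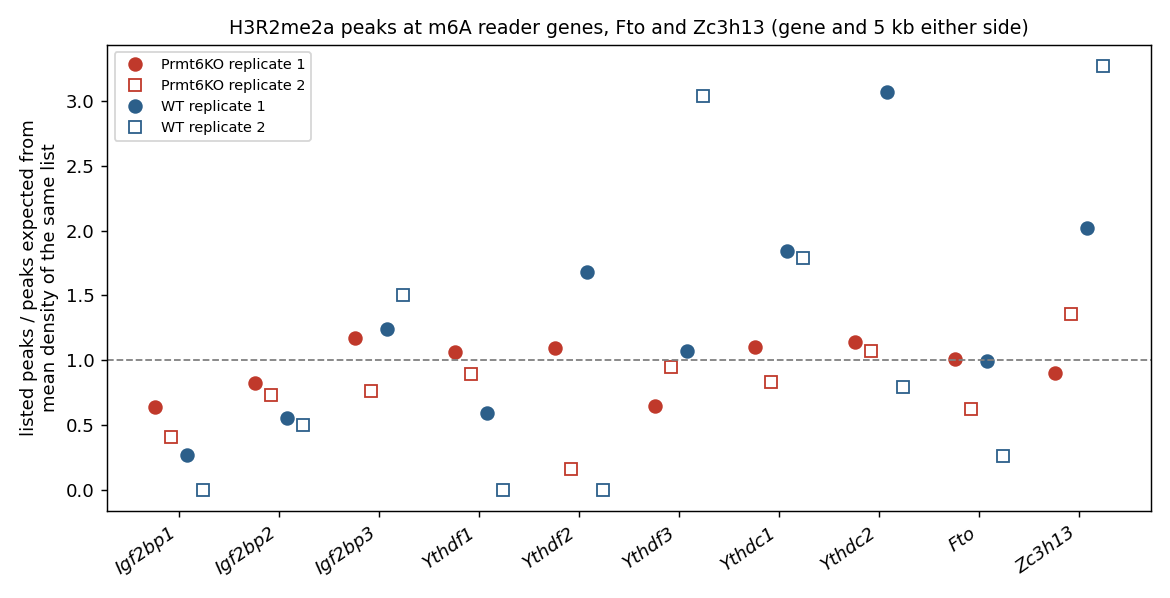
Listed H3R2me2a peaks divided by the number expected from the mean density of the same list, for each of the 10 genes with 5 kb either side, in the Prmt6KO libraries (red) and the WT libraries (blue). The dashed line marks a ratio of 1; the Prmt6KO points run from 0.159 to 1.36 and the WT points from 0 to 3.27, with the highest in WT at Zc3h13.

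Among the IGF2BP genes, Igf2bp1 and Igf2bp2 had fewer peaks than expected in all 4 libraries, as 25.7% of all genes did, and Igf2bp3 did not. Igf2bp1 (chromosome 11, 95957163 to 96005944) had 12 and 4 peaks in Prmt6KO, where 18.7 and 9.88 were expected, and 1 and 0 in WT, where 3.73 and 3.08 were expected. Its ratios of 0.643 and 0.405 in Prmt6KO were both above those of 0.268 and 0 in WT. The log2 difference of 1.26 (exact permutation p = 0.333, as low as this test can go) stood at the 87.3rd percentile of all genes. With 1 added to each count it was 0.78, and against the density of 500 kb either side 0.75. At a fold enrichment of at least 2.5 it was 1.89. The sequence around the gene was also below the mean in peaks: within 500 kb either side, the density was 0.949 and 0.502 times the mean in Prmt6KO and 0.506 and 0.345 times in WT. Igf2bp1 was the 1 gene of the 10 at which no Prmt6KO replicate 1 peak overlapped a Prmt6KO replicate 2 peak.

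Igf2bp2 (chromosome 16, 22059009 to 22163299), the gene deleted in Igf2bp2KO, had 30 and 14 peaks in Prmt6KO, where 36.2 and 19.2 were expected, 0 and 0 in Igf2bp2KO, where 0.0429 and 0.0545 were expected, and 4 and 3 in WT, where 7.24 and 5.97 were expected. The 0 in Igf2bp2KO carried no information on the deletion, since less than 1 peak was expected: the nearest listed peak lay 10915 and 5638 kb away. Ratios of 0.829 and 0.730 in Prmt6KO were both above 0.553 and 0.503 in WT, a log2 difference of 0.48 at the 61.5th percentile of all genes (two-sided exact permutation p = 0.333). At a fold enrichment of at least 2.5 the log2 difference was -0.18. The gene held the tallest peak of all 10 in the WT lists. It stood in WT replicate 1 at 22158207 to 22158479, in the gene and 4924 bp downstream of the start site, with 11 fragments, a fold enrichment of 4.88 and a q of 0.000458. A Prmt6KO replicate 1 peak overlapped it, and WT replicate 2 listed none there.

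Igf2bp3 (chromosome 6, 49085218 to 49215469) had 52 and 18 peaks in Prmt6KO, where 44.4 and 23.5 were expected, and 11 and 11 in WT, where 8.88 and 7.32 were expected. Ratios were 1.17 and 0.765 in Prmt6KO and 1.24 and 1.5 in WT, so that both Prmt6KO libraries lay below both WT libraries, by 0.50 on the log2 scale on average (two-sided exact permutation p = 0.333). At a fold enrichment of at least 2.5 the log2 difference was -0.93. Within the gene, Prmt6KO peaks lay more often on the lower-coordinate side of the midpoint, with 29 and 12 there and 20 and 4 on the other side, and WT peaks on the higher-coordinate side, with 6 and 8 there and 4 and 1 on the other. This split was noticed in the data and was not tested. The tallest WT peak of the gene, at 49184812 to 49185244 in replicate 1, held 10 fragments with a fold enrichment of 4.47 and a q of 0.00324. WT replicate 2 listed a peak of 6 fragments at 49184087 to 49184476, less than 1 kb away without overlap. No Prmt6KO peak overlapped either of these. A Prmt6KO replicate 1 peak of 3 fragments, at 49183875 to 49184074, ended just short of the WT replicate 2 peak. A position 42.7 kb from the lower-coordinate end was shared by 3 lists, with 3 and 5 fragments in the Prmt6KO libraries (49127815 to 49128014 and 49127958 to 49128157) and 8 in WT replicate 2 (49127893 to 49128149).

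The YTHDF genes are short, and their counts were correspondingly low. Ythdf1 (chromosome 2, 180904377 to 180920936) had 9 and 4 peaks in Prmt6KO, where 8.48 and 4.49 were expected, and 1 and 0 in WT, where 1.70 and 1.40 were expected. The single WT peak, with 6 fragments, lay outside the gene. Ratios of 1.06 and 0.891 in Prmt6KO stood above 0.590 and 0 in WT, a log2 difference of 1.20 at the 86.1st percentile of all genes (two-sided exact permutation p = 0.333). Without the flanks the log2 difference was 1.95, and at a fold enrichment of at least 2.5 it was -0.94. With 1 added to each count it was 0.82, and against the density of 500 kb either side 0.84. Within 500 kb either side the density was 0.892 and 0.436 times the mean in Prmt6KO and 0.459 and 0.269 times in WT, so in its surroundings Prmt6KO replicate 1 was above both WT libraries and Prmt6KO replicate 2 stood between them.

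Ythdf2 (chromosome 4, 132184916 to 132212256) differed more within genotypes than between them. It had 13 and 1 peaks in Prmt6KO, where 11.9 and 6.29 were expected, and 4 and 0 in WT, where 2.38 and 1.96 were expected. Ratios of 1.09 and 0.159 in Prmt6KO spanned most of the range of 1.68 and 0 in WT, and the log2 difference of -0.20 had an exact permutation p of 1. It was 0.04 without the flanks, 0.51 with 10 kb either side and 0.35 at a fold enrichment of at least 2.5. The single peak of Prmt6KO replicate 2, at 132187600 to 132187942 with 7 fragments, overlapped a peak of 2 fragments in replicate 1.

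Ythdf3 (chromosome 3, 16183148 to 16217037), whose protein works with those of its 2 paralogs, had 9 and 7 peaks in Prmt6KO, where 14.0 and 7.39 were expected, and 3 and 7 in WT, where 2.79 and 2.30 were expected. Ratios were 0.645 and 0.947 in Prmt6KO and 1.08 and 3.04 in WT, a log2 difference of -1.09 at the 6.97th percentile of all genes (two-sided exact permutation p = 0.333). At a fold enrichment of at least 2.5 the log2 difference was -0.23. It was 1 of the 2 genes, with Fto, at which the WT libraries listed overlapping peaks. Those at Ythdf3 were at 16215913 to 16216328 with 7 fragments and 16215927 to 16216126 with 5 fragments, inside the gene and within 1 kb of its end at higher coordinates. Prmt6KO replicate 1 also listed this position, with 3 fragments (16215970 to 16216303). The neighbourhood of Ythdf3 was rich in peaks, with 1.04 and 1.42 times the mean density in Prmt6KO and 1.6 and 1.86 times in WT. Set beside its neighbourhood, the gene had ratios of 0.623 and 0.670 in Prmt6KO and 0.677 and 1.64 in WT.

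Of the YTHDC genes, Ythdc1 (chromosome 5, 86803980 to 86836659) had 15 and 6 peaks in Prmt6KO, where 13.6 and 7.19 were expected, and 5 and 4 in WT, where 2.71 and 2.24 were expected. Ratios of 1.11 and 0.835 in Prmt6KO were both below 1.84 and 1.79 in WT. The log2 difference was -0.80, at the 11.9th percentile of all genes (two-sided exact permutation p = 0.333). Within 500 kb either side the density was 0.994 and 1.31 times the mean in Prmt6KO and 1.38 and 1.42 times in WT. Against this local density the log2 difference at Ythdc1 was -0.57. The WT libraries were alike in number and not in position, since no peak of replicate 1 overlapped one of replicate 2.

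Ythdc2 (chromosome 18, 44827730 to 44889720) had 26 and 13 peaks in Prmt6KO, where 22.8 and 12.1 were expected, and 14 and 3 in WT, where 4.57 and 3.76 were expected. Ratios of 1.14 and 1.08 in Prmt6KO lay between the 3.07 and 0.797 of the WT libraries, so the groups overlapped (log2 difference -0.47, exact permutation p = 1). WT replicate 1 was high and WT replicate 2 was not. Ythdc2 was the 1 gene of the 10 with a peak at a q of 0.05 or below in each WT library, both of 10 fragments. They stood 66.0 and 7.27 kb from the gene's lower-coordinate end, the first outside the gene, and a Prmt6KO replicate 1 peak overlapped each.

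Fto and Zc3h13 represent removal and writing of m6A. Fto (chromosome 8, 91313367 to 91668433) had 117 and 38 peaks in Prmt6KO, where 115.4 and 61.1 were expected, and 23 and 5 in WT, where 23.1 and 19 were expected. Replicate 1 of each genotype was at the expected number, with ratios of 1.01 in Prmt6KO and 0.996 in WT, and replicate 2 of each was below it, with 0.622 in Prmt6KO and 0.263 in WT. The log2 difference of 0.59 had an exact permutation p of 0.667. Within 500 kb either side, replicate 2 was again below replicate 1 in each genotype. The density there was 1.01 and 0.639 times the mean in Prmt6KO and 0.617 and 0.499 times in WT. Against this local density the log2 difference at Fto was 0.08. The tallest WT peak of the gene stood in replicate 1 at 91621409 to 91621609, with 9 fragments, a fold enrichment of 4.06 and a q of 0.0192, and a Prmt6KO replicate 1 peak overlapped it. The WT libraries shared 1 position, at 91547895 to 91548094 with 6 fragments and 91548083 to 91548282 with 7 fragments, which overlapped by 12 bp.

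Zc3h13 (chromosome 14, 75284306 to 75344433) had 20 and 16 peaks in Prmt6KO, where 22.2 and 11.8 were expected, and 9 and 12 in WT, where 4.45 and 3.67 were expected. Ratios of 0.899 and 1.36 in Prmt6KO were both below 2.02 and 3.27 in WT, a log2 difference of -1.12 at the 6.66th percentile of all genes (two-sided exact permutation p = 0.333). This was the lowest of the 10 differences at this setting, and without the flanks Ythdc1 (-1.17) and Ythdf3 (-1.12) were lower than Zc3h13 (-0.93). Densities above the mean in both WT libraries were not shared by the surroundings: within 500 kb either side the density was 1.10 and 0.789 times the mean in Prmt6KO and 0.997 and 0.845 times in WT. WT peaks in the gene lay mainly on the side of the midpoint where the gene starts, with 6 and 8 there and 1 and 2 on the other side. In Prmt6KO 6 and 9 lay on the side of the start and 12 and 6 on the other, and this split was likewise noticed in the data. WT replicate 1 listed 2 peaks of 9 fragments with a fold enrichment of 4.06 and a q of 0.0192. The one at 75285735 to 75286574 was 840 bp wide and lay 2.12 kb into the gene, and the other stood at 75308528 to 75308760. Neither overlapped a peak of WT replicate 2 or of Prmt6KO.

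**Figure D3:**
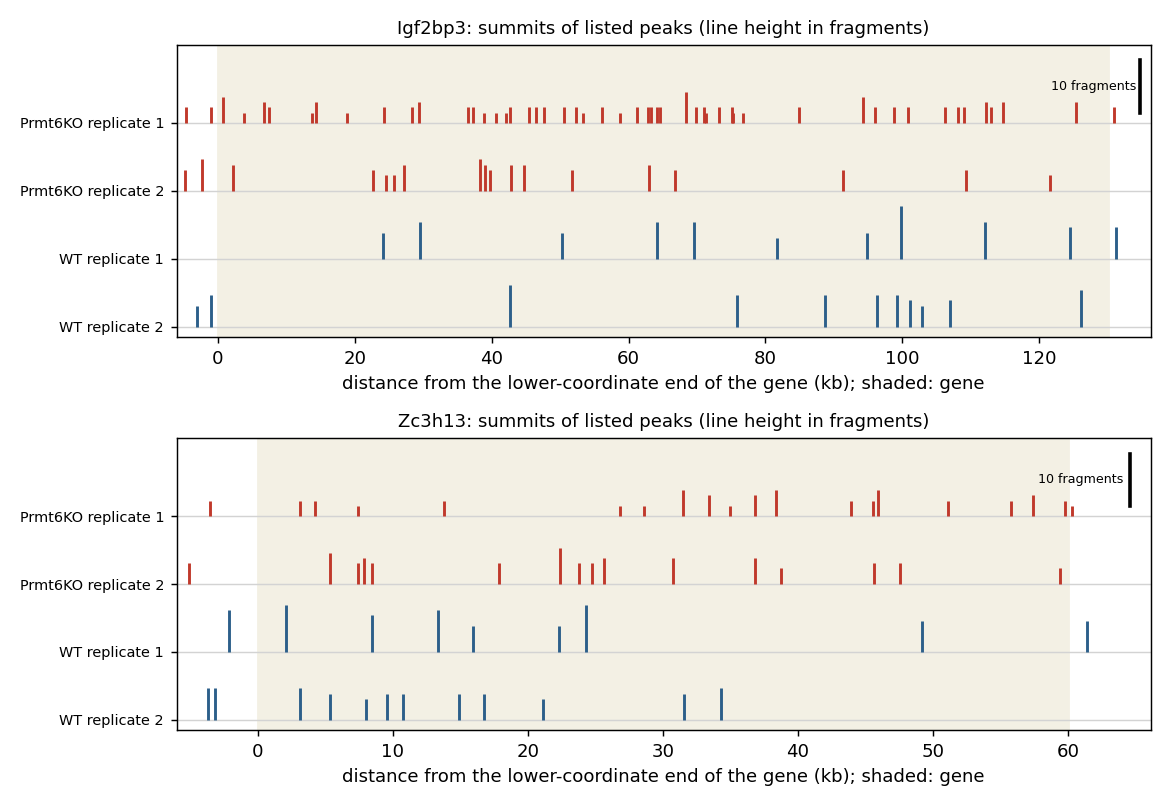
Summits of listed peaks along Igf2bp3 and Zc3h13, as distance in kb from the gene's lower-coordinate end, with the gene shaded and line height giving fragments at the summit, for the Prmt6KO libraries (red) and the WT libraries (blue). The Prmt6KO lists hold more and lower peaks, up to 7 fragments against up to 10 in WT, and in Zc3h13 the WT summits lie mainly to the left of the midpoint, with 6 and 8 there and 1 and 2 to the right.

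Read across the 10 genes, the ratios of both Prmt6KO libraries exceeded those of both WT libraries at 3, Igf2bp1, Igf2bp2 and Ythdf1, and 26.5% of all genes did the same. They were below both WT libraries at 4, Igf2bp3, Ythdf3, Ythdc1 and Zc3h13, where 14.4% of all genes were. At the other 3 the groups overlapped. Among peaks with a fold enrichment of at least 2.5, 1 gene was higher and 2 were lower in both Prmt6KO libraries. The median log2 difference was -0.34 over the 10 genes and 0.22 over all genes, whose quartiles were -0.36 and 0.85. Neither these medians nor the percentiles above were matched for length, and the median region was 64455 bp and 27329 bp. The same 4 genes were those with more peaks than expected in both WT libraries, which 19.2% of all genes had, and 0 of the 10 exceeded expectation in all 4 libraries, where 7.8% of all genes did. Both readings share the WT counts and are not separate evidence.

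Peaks with a q of 0.05 or below stood at these genes in the WT lists and not in the Prmt6KO lists. The q and the height of a peak belong to its own list, so each is read against that list, and the difference between genotypes was not tested. In WT, 5 of the 10 genes had a peak at a q of 0.05 or below in either library, namely Igf2bp2, Igf2bp3, Ythdc2, Fto and Zc3h13, where 8.41% of all genes did, and 13.8% of the genes with a region at least as long as the shortest of the 10. In Prmt6KO 0 of the 10 did, where 11.1% of all genes did, and 17.9% of those as long. Counted as peaks, 0 of 303 and 0 of 121 reached this q in Prmt6KO, with Wilson intervals of 95% up to 1.25% and 3.08%, where the whole lists had 0.497% and 1.34%. In WT 6 of 75 (8%, interval 3.72 to 16.4%) and 1 of 45 (2.22%, 0.393 to 11.6%) did, where the whole lists had 3.05% and 2.03%. The interval of WT replicate 1 lay above the share of its list, and the other 3 intervals included theirs. Such intervals cover counting error only and treat peaks as independent. The genes were also named with earlier results of these data known, so this is a description and not a test of the 10 genes. The median summit held 3 and 5 fragments in Prmt6KO and 6 and 6 in WT, against 3 and 4 and 6 and 6 over the lists, and the highest held 6 and 7 in Prmt6KO and 11 and 10 in WT.

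Of the 6 WT replicate 1 peaks at this q, 3 overlapped a Prmt6KO peak, at Igf2bp2, Ythdc2 and Fto, and the 3 at Igf2bp3 and Zc3h13 did not. The single one of WT replicate 2, at Ythdc2, overlapped one. Over the whole lists, 55.3% and 60.4% of WT peaks at this q overlapped a peak of either Prmt6KO library. None of the 7 was listed in both WT libraries.

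Few positions at these genes were listed in both libraries of a genotype. In Prmt6KO, 29 of 303 replicate 1 peaks (9.57%, Wilson interval 6.75 to 13.4%) overlapped a replicate 2 peak, and 30 of 121 (24.8%, 18 to 33.2%) the reverse. In WT, 2 of 75 (2.67%, 0.734 to 9.21%) and 2 of 45 (4.44%, 1.23 to 14.8%) did. The whole lists had 11.5% and 21.6% in Prmt6KO and 6.06% and 7.34% in WT, and all 4 intervals included them. By gene, 9 of the 10 had an overlapping pair of positions in Prmt6KO, where 52.5% of all genes and 72.3% of those as long did. In Igf2bp2KO 0 did, where 0.37% of all genes did. In WT 2 did, where 10.3% of all genes and 16.7% of those as long did.

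A gene was called at its ends when both libraries of a genotype had a peak within 1 kb of either end. It was lost when called in WT and without such a peak in both knockout libraries, and gained in the opposite case. By this rule 4 of the 10 were called in Prmt6KO, Ythdf1, Ythdf3, Fto and Zc3h13, where 29% of all genes were. In Igf2bp2KO 0 were called, where 0.208% of all genes were, and in WT 2 were, Igf2bp3 and Ythdf3, where 3.56% of all genes were. Ythdf1, Fto and Zc3h13, with 0 gene-end peaks in WT, thus counted as gained in Prmt6KO, as 18.6% of all genes did, and 0 of the 10 as lost, where 0.425% of all genes were. Igf2bp3 and Ythdf3, the 2 called in WT, counted as lost in Igf2bp2KO, where 3.31% of all genes were. There 0 were gained, as among all genes (0%). With Igf2bp2KO lists this short, a call in WT nearly always counts as a loss: 770 of all genes were called in WT and 716 were lost. The counts of lost and gained in Igf2bp2KO thus carry no information on these genes. At a fold enrichment of at least 2.5, 0 genes were called or gained in Prmt6KO, and 1 was called in WT and lost in Igf2bp2KO. Without Prmt6KO replicate 2, 9 were called and 6 gained in Prmt6KO, and without Prmt6KO replicate 1, 1 was lost.

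The positions behind these counts differed from gene to gene. At Ythdf1 the Prmt6KO peaks coincided at the end of the gene farther from the start site, at 180904417 to 180904616 with 2 fragments and at 180904289 to 180904488 with 4 fragments. At Zc3h13 they lay at the same end of the gene without overlap, with 3 and 2 fragments in replicate 1 and 3 in replicate 2. At Fto they lay at opposite ends, at 91313839 to 91314244 near the start in replicate 1 and at 91668631 to 91668830 in replicate 2. The WT peaks of Igf2bp3 likewise stood at opposite ends, at 49216426 to 49216625 in replicate 1 and 49084106 to 49084319 in replicate 2, each with 6 fragments. At Ythdf3 the gene-end peaks of both WT libraries coincided.

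In Igf2bp2KO no peak lay at any of the 10 genes, as the length of its lists gives. At the mean density of those lists the expected number was at most 0.174 at a gene, and the nearest listed peak lay between 777 kb away, at Ythdf3, and 13197 kb away, at Ythdf2. Since the lowest summit listed there held 8 and 7 fragments, WT peaks of at least 8 fragments were followed. The 10 genes had 16 and 2 of them, in Igf2bp2, Igf2bp3, Ythdc1, Ythdc2, Fto and Zc3h13, and 0 of these overlapped an Igf2bp2KO peak. Over the whole WT lists 6.15% of 14523 and 8.69% of 8518 such peaks did. Absence from the Igf2bp2KO lists was therefore the usual state of tall WT peaks too. Of the same 16 and 2 peaks, 7 and 2 overlapped a Prmt6KO peak, where the lists had 43.1% and 43.4%.

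**Figure D4:**
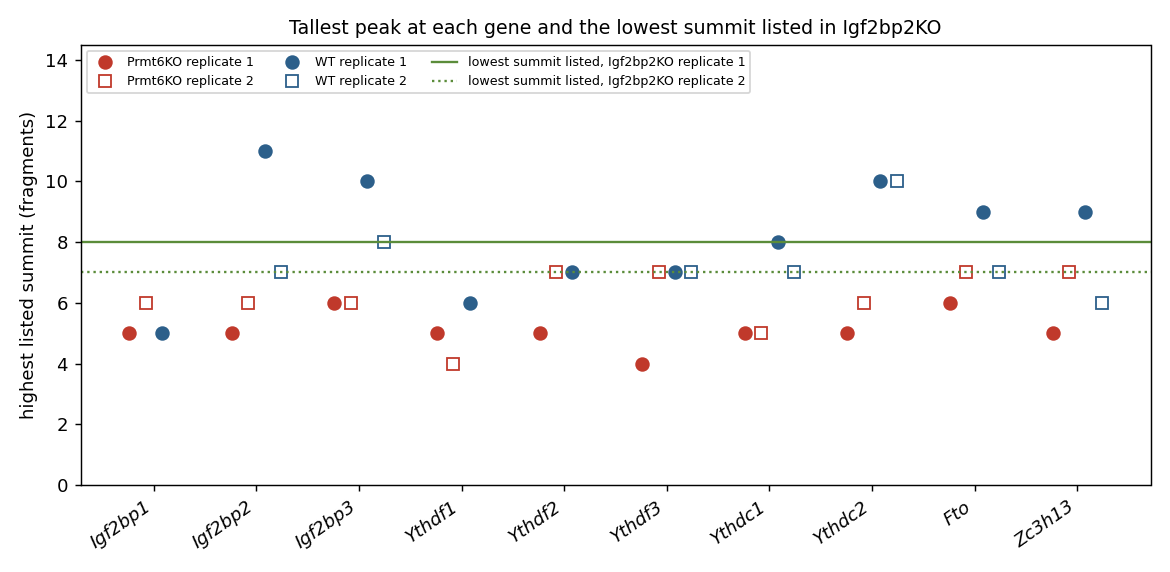
Highest listed summit, in fragments, at each of the 10 genes in the Prmt6KO libraries (red) and the WT libraries (blue); a gene with no listed peak in a library has no point. Green lines mark the lowest summit listed in the Igf2bp2KO libraries, 8 and 7 fragments: all Prmt6KO summits stand at 7 or below, and WT summits reach 11 at Igf2bp2.

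Another 24 genes of the m6A pathway, other writers, erasers and readers, gave a setting for these values. Together they held 489 and 194 peaks in Prmt6KO, where 430.2 and 227.8 were expected, and 90 and 81 in WT, where 86.0 and 70.9 were expected. Their log2 difference of -0.15 compared with -0.28 for the 10, with pooled SDs between libraries of 0.22 and 0.31. Both Prmt6KO ratios exceeded both WT ratios at 4 of the 24 (Pcif1, Rbmx, Fxr2 and Prrc2a), where 26.5% of all genes did. They were below them at 6 (Cbll1, Mettl5, Trmt112, Elavl1, Fxr1 and Eif3a), where 14.4% of all genes were. Rbmx lies on chromosome X, where WT replicate 1 had few peaks, and Trmt112 stands among the 6 only through the 0.5 added to each count. On the log2 scale with 0.5 added, and averaged over the Prmt6KO and WT libraries, the ratio was highest at Fxr1, a gene for an RNA-binding protein, with 1.37 and 1.19 in Prmt6KO and 2.1 and 1.91 in WT. On the same scale it was lowest at Trmt112, whose protein is a partner of several methyltransferases, with 1 and 0 peaks in Prmt6KO and 0 and 0 in WT. At gene ends, 7 of the 24 had a peak in both Prmt6KO libraries (Virma, Zcchc4, Hnrnpc, Fxr2, Prrc2a, Eif3a and Lrpprc), where 29% of all genes did. In both WT libraries 1 did (Cbll1), where 3.56% of all genes did.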

How the data were processed

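H3R2me2a peak lists of 6 libraries were grouped by sample title. The submitters' processing notes name MACS2 2.1.0, HISAT2 and Trim Galore, also bcl2fastq 2.17 and bedtools, and build mm10, without settings. The deposited lists give each peak's fold enrichment at the summit (a ratio), and the −log10 of its p-value and q-value, as the authors' peak caller wrote them, with 1 list per library and no pooling. The summit pileup, a coverage signal per the file headers, is deposited beside each list. Igf2bp2KO pileups were scaled by 0.277 and 0.302 per fragment and were divided by these steps.

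Peaks of chromosomes 1 to 19 and X were counted at each gene with 5 kb either side (overlap of 1 bp). The expected number was the list's peaks times region length plus mean peak width less 1 bp, over the span from first to last peak of each chromosome. Gene positions came from the RefSeq table of GRCm38.p6, without strand or exons. Python 3.11.15, numpy 2.4.6, pandas 2.3.3 and SciPy 1.17.1 were used, and the calculations were tested on simulated data. The 10 genes, the 24 further genes and the tests were chosen with earlier results of these data known. All 10 genes are named. Single peaks are named where q was 0.05 or below. Of those that overlapped a peak of the same genotype or lay at a called gene end, or were a gene's tallest, only some are given by position. These, other positions and the split at midpoints were chosen after their values were seen. Alternatives were other flanks, densities, thresholds and overlaps, and each library left out.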

Additional observations from a re-analysis of the deposited data

How the results depend on the processing

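The log2 difference of -0.28 over the 10 genes ran from -0.56 (without Fto) to -0.20 under the other settings that gave a value and from -0.51 to -0.05 with a library left out. Among peaks with a fold of at least 4, or with q at most 0.05, a Prmt6KO library had 0 peaks at the 10 genes, so it could not be computed. At either threshold, the genes with a peak in both libraries came to 0 in Prmt6KO and 1 in WT, and the counts at gene ends (called in Prmt6KO or WT, gained in Prmt6KO, lost in Igf2bp2KO) to 0. At a fold of at least 2.5, an alternative added for the first of these after seeing the data, 1 gene was higher and 2 were lower in both Prmt6KO libraries than in both WT libraries, and at gene ends 0 were called and 0 gained in Prmt6KO, 1 was called in WT and 1 lost in Igf2bp2KO. With a library left out, its genotype was called from the other alone. Genes called at their ends then ran from 4 to 9 in Prmt6KO and from 2 to 3 in WT, those gained in Prmt6KO from 3 to 6, those lost from 0 to 1 in Prmt6KO and from 2 to 3 in Igf2bp2KO, and those with a WT peak in both libraries from 7 to 10. The highest, 9 called and 6 gained, came without Prmt6KO replicate 2, and 1 was lost without Prmt6KO replicate 1. The share of replicate 1 peaks that overlapped replicate 2 was 3.30% in Prmt6KO and 0% in WT where at least 50% of both peaks had to overlap, 6.49% in Prmt6KO at a fold of at least 2.5, 0% in both at a fold of at least 4 and 0% in WT at a q of 0.05 or below. Of 80 single-gene differences under 8 settings, 71 moved by less than the spread between libraries, 9 moved further and 5 changed sign: Ythdf2 (0.04 without flank, 0.51 with 10 kb, 0.35 at a fold of at least 2.5), Igf2bp2 (-0.18) and Ythdf1 (-0.94), both at a fold of at least 2.5. The causes were not tested.

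Labels do not say that replicate numbers mark a shared batch, and deviations of same-numbered libraries correlated with r = 0.06 across 21631 genes and with r = 0.77 across the 10 genes, which are not independent replicates. With 2 numbers this does not settle whether they pair the libraries. With the replicate number as a block the difference over the 10 genes stays at -0.28 by construction, since the mean of paired differences equals the difference of means. Both numbers gave the same sign at 8 of the 10 (smallest sign-flip p 0.5). At genes whose groups do not overlap this sign is fixed, so neither value is a check. Low counts limit the precision, as at Ythdf1, where the interval in WT replicate 1 ran from 0.0149 to 3.29 times the expected number. Leaving out Fto, the density of 500 kb either side and an added count of 1 were chosen after seeing the data.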
